A study of Mus musculus with 94 samples.

Results

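The late tumors compared here were the 4T1 tumors harvested 15 and 23 days after a single 6 Gy dose and the control tumors of the same days. They were chosen by treatment and day, and made up 16 of the 94 tumors of the series: 5 irradiated and 3 control tumors on each day. 4T1 is a mammary carcinoma line from BALB/c mice that is used as a model of triple-negative breast cancer. It was implanted in the right hind limb of 8-week-old mice, which were randomised once tumors measured 100 to 200 mm3. The irradiated group received 6 Gy and no drug, the control group neither radiation nor drug, and the mice carried no engineered allele according to the labels. RNA of the whole tumor was sequenced from stranded total RNA libraries, so tumor cells, infiltrating leukocytes, stroma and neighbouring host tissue were read together. In such bulk RNA, fewer cells of a type and less RNA per cell cannot be told apart. To see which early effects were still present late, the late tumors were set beside 15 irradiated and 14 control tumors of days 1, 3 and 7, called early below.

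Ionising radiation breaks DNA, which activates p53 and its targets and can halt the cell cycle. Damaged DNA that reaches the cytosol is sensed by cGAS and STING, which induce type I interferon and interferon-stimulated genes. Within an irradiated tumor the dose also reaches vessels, fibroblasts and leukocytes, and lymphocytes and endothelial cells are known as radiosensitive. Cells that later enter from the circulation were not in the field when the dose was given.

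Library totals of the 16 late tumors lay between 29.4 M and 88.0 M counts (M, mega). Levels are given in CPM, the counts of a gene per 1 M counts of its library, scaled across tumors by the trimmed mean of M values (TMM). The first and second principal components of the 1000 most variable genes held 35.8% and 21.6% of the variance and did not separate irradiated from control tumors. The tumor epithelium list summed to 3352 to 6153 CPM in controls and 2313 to 4536 CPM in irradiated tumors. Some tumors carried RNA of the tissue around them. Summed over the skeletal muscle list, the level was 8621 CPM in 6 Gy replicate 2 of day 23, 3039 CPM in 6 Gy replicate 5 of day 15 and 2672 CPM in control replicate 3 of day 23, against 30.3 to 397 CPM in the other late tumors. Mitochondrial transcripts took 14.6% of the counts in that 6 Gy replicate 2 and 3.0% to 6.89% in the others. The skin and hair list summed to 193 and 142 CPM in the control replicates 1 of days 15 and 23 and to 128 CPM in 6 Gy replicate 3 of day 15, against 4.31 to 41.5 CPM elsewhere. The first 3 are called muscle-rich and the last 3 skin-rich, and late list medians are also given without all 6 where they then changed sign or differed by over 1.5 times. Without all 6, 10 tumors remain, and the only controls among them are replicates 2 and 3 of day 15 and replicate 2 of day 23.

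No gene passed the test late. Of 21281 genes tested over both days with day as a covariate, edgeR's quasi-likelihood test called 0 higher and 0 lower after 6 Gy (0% in each direction) at a Benjamini-Hochberg adjusted p under 0.05. The smallest adjusted p was 0.0937. At an unadjusted p under 0.05, 1001 genes were higher (4.7%) and 1531 lower (7.19%), 2532 in all, and 5% of the genes tested is 1064. The same test on the 29 early tumors, in a fit of all 45 control and 6 Gy tumors, called 3830 genes higher (15.9%) and 4182 lower (17.4%) of 24102. The late effects were less precise: the median SE of a late log2 fold change was 0.21, against 0.16 early, and the median 95% interval reached 0.45 to each side. DESeq2 on the same 16 late tumors called 92 genes, 30 higher and 62 lower, which are described at the end.

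By day, 917 genes had an unadjusted p under 0.05 on day 15 and 3239 on day 23. The smallest edgeR adjusted p was 0.611 on day 15 and 0.0516 on day 23. The fit of all 45 tumors called 0 of 24102 genes on day 15 (edgeR, adjusted p under 0.05). On day 23 it called 62 higher and 98 lower. The difference between the effects of both days was called for 0 of 21281 genes, with 1394 at an unadjusted p under 0.05.

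The effect of radiation was smaller late than early for most of the gene lists, which grouped 751 tested genes by cell type or pathway. Of 41 lists, 29 had a late median log2 fold change nearer to 0 than their early one, beside medians over all genes of 0.01 late and 0.03 early. No member of any list was called late, so late list values below are descriptions. Without the 6 muscle-rich and skin-rich tumors the late median of 8 of the 41 lists took the other sign, among them those of interferon-stimulated genes (−0.22 to 0.11), hypoxia and glycolysis (0.11 to −0.02) and p53 and radiation response (0.03 to −0.08). For 2573 of 24102 genes the late effect itself differed from the early one (edgeR, adjusted p under 0.05), 1331 with a positive difference (5.52%) and 1242 with a negative one (5.15%).

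**Figure D1:**
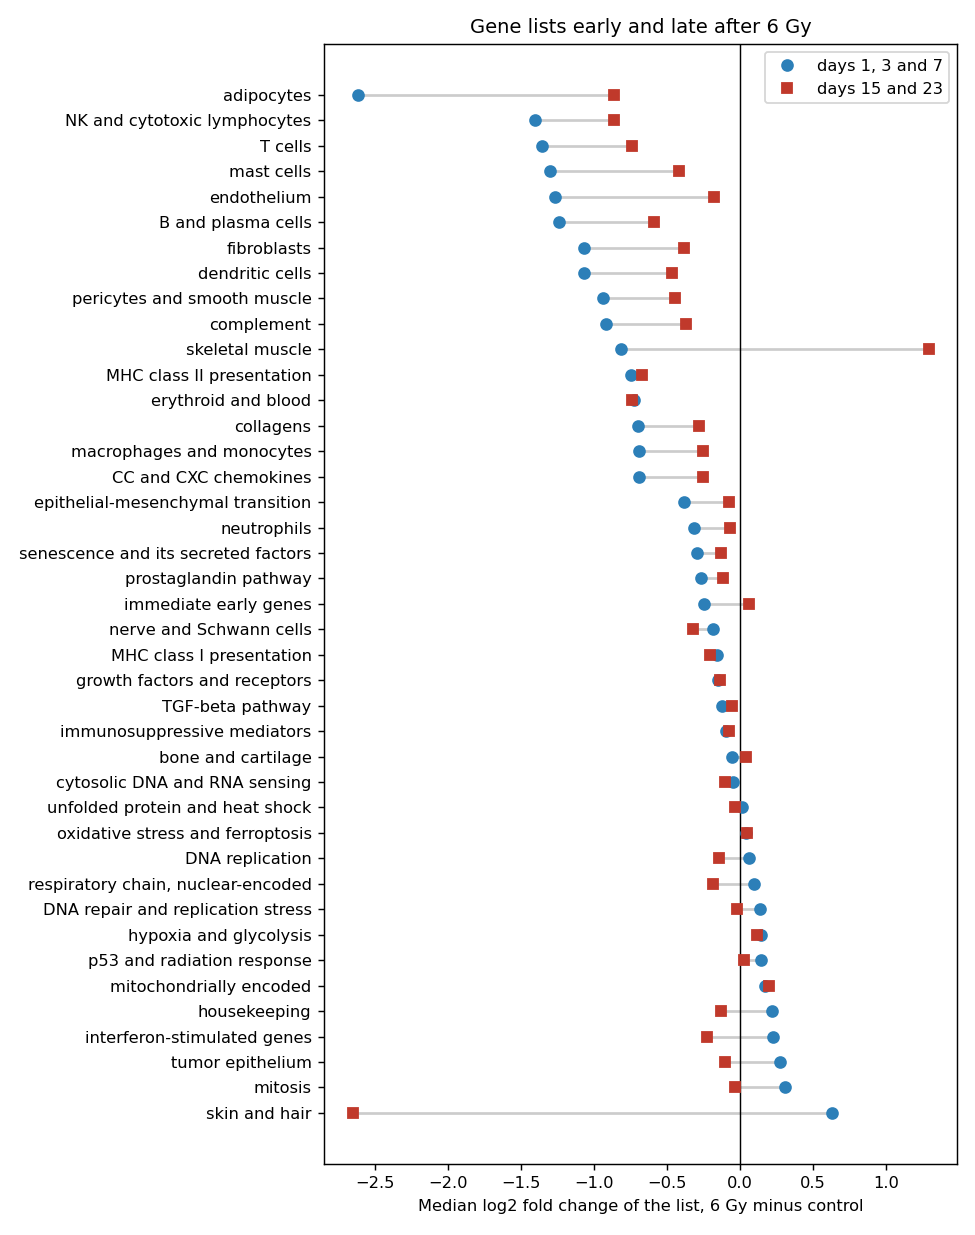
Median log2 fold change of each of 41 gene lists, 6 Gy minus control, on days 1, 3 and 7 (circles) and on days 15 and 23 (squares). Most stromal and leukocyte lists lie left of 0 early and nearer to 0 late, as for the endothelium list (−1.27 early, −0.18 late). The MHC class II list lies at −0.75 and −0.67, though its late median was −0.30 without the 6 muscle-rich and skin-rich tumors.

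The early effect on vessel genes was much smaller in the late tumors. The endothelium list holds junction, receptor and transcription factor genes of blood and lymph vessels. Early, 21 of its 22 tested members were lower after 6 Gy (17.4% of all genes), with a median of −1.27. Late, its median was −0.18, and the late-minus-early difference was called positive for 16 of 22 members (5.52% of all genes) and negative for 0. Without the 6 muscle-rich and skin-rich tumors the late median was −0.12. By day it was 0.22 on day 15 and −0.58 on day 23. On day 23 every irradiated tumor lay below every control for 7 of the 22 genes (6.89% of all genes), and on day 15 for 0 (1.62%).

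Plvap, which encodes a protein of the diaphragms of capillary pores (chr8:71497765-71511752, minus strand), had 30.8, 42.2 and 65.9 CPM as its lowest, median and highest level in early controls. Early irradiated tumors lay at 9.95, 12.8 and 21.2 CPM, below every control. Late controls lay at 12.3, 16.9 and 22.5 CPM and late irradiated tumors at 9.02, 14.8 and 22.7 CPM, so that the groups overlapped. The early log2 fold change was −1.60 ± 0.12 (SE, edgeR adjusted p = 1.21e-12), the late one −0.12 ± 0.18, and their difference 1.48 ± 0.21 (adjusted p = 3.87e-05). Thus the late tumors of both treatments sat where the early irradiated tumors were.

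Tie1 and Tek, the receptors of the angiopoietin pathway, followed the same course. Tie1 was at 16.2 to 39.2 CPM in early controls, 4.79 to 12.9 CPM in early irradiated tumors, and then at 8.57 to 19.1 CPM in late controls and 5.92 to 14.8 CPM in late irradiated tumors. Its difference between late and early effects was 1.42 ± 0.23 (adjusted p = 0.000326) and that of Tek 1.37 ± 0.31 (adjusted p = 0.00445). Selp, the P-selectin that tethers leukocytes to activated vessels, went from an early fold change of −2.36 ± 0.25 to 0.05 ± 0.40 (difference 2.43 ± 0.43, adjusted p = 0.000599). Prox1, a transcription factor of lymphatic endothelium, kept a negative late value of −1.41 ± 0.45 that was not called, against −1.04 ± 0.32 early.

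The level that moved between the early and the late days was mostly that of the controls. Compared within the controls, late against early, 18 of the 22 endothelial genes fell and 0 rose (edgeR, adjusted p under 0.05), beside 15.3% and 13.6% of all genes. Within the irradiated tumors 1 fell and 6 rose, beside 19.2% and 18.5% of all genes. The medians were −0.87 in controls and 0.18 in irradiated tumors on the log2 scale. For Plvap the change was −1.29 in controls (adjusted p = 2.86e-07) and 0.19 in irradiated tumors (adjusted p = 0.24). Tumor age and days since irradiation move together here and cannot be told apart, and RNA of neighbouring tissue also differed between the periods. The skeletal muscle list summed to a median of 4022 CPM in early and 53.4 CPM in late controls, and of 2310 and 143 CPM in irradiated tumors. The adipocyte list moved with the vessel genes, at a median of 135 CPM in early controls (43.0 to 293), 35.9 CPM in early irradiated tumors (22.2 to 77.2), 33.4 CPM in late controls (24.7 to 53.8) and 25.4 CPM in late irradiated tumors (19.0 to 76.4). With time, 12 of its 14 genes fell in controls and 6 in irradiated tumors. Structural RNA genes, such as those of 7SK, snRNA and snoRNA, took a median of 6.94% of the counts in early controls and 11.3% in early irradiated tumors, but 8.39% and 8.62% late. The part of these RNAs in the early effects and the differences, here and for the stromal and macrophage genes below, was not tested.

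**Figure D2:**
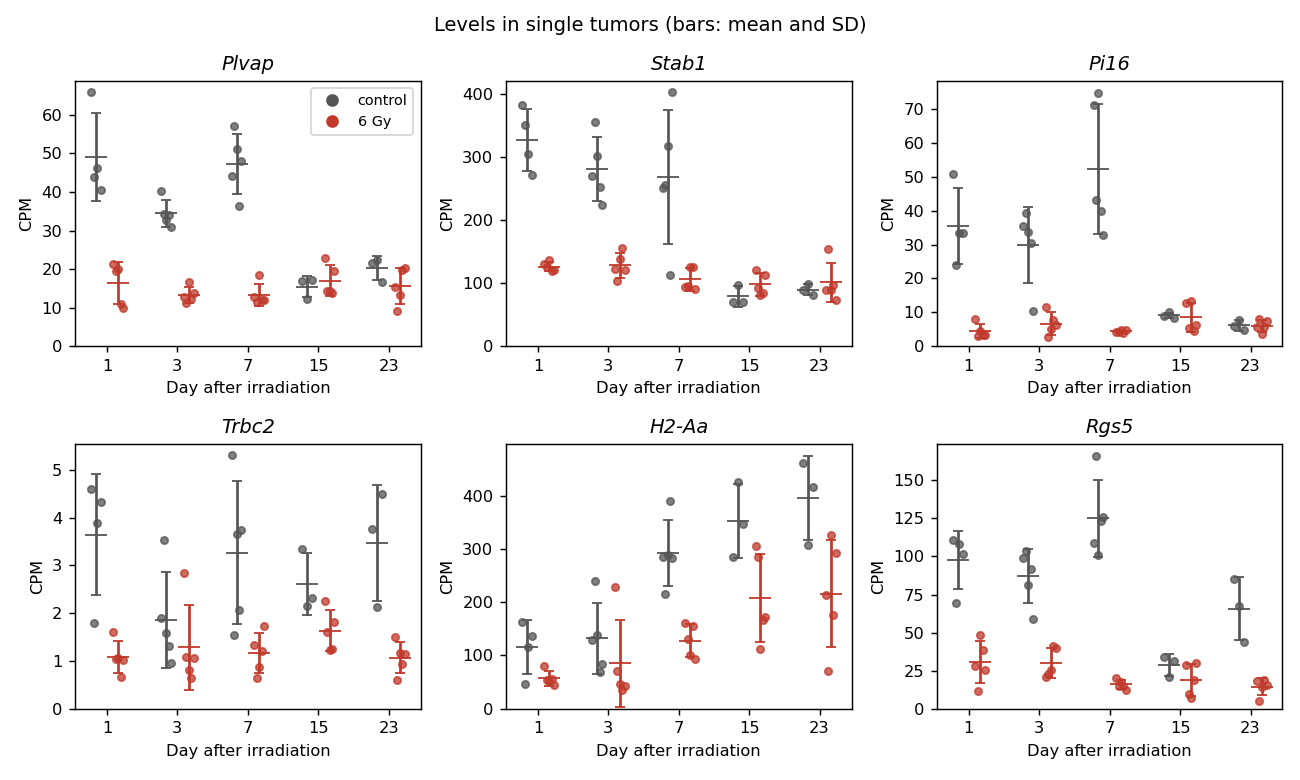
Level in CPM of 6 genes in each of the 45 control (grey) and 6 Gy (red) tumors by day, with the mean and SD of each group as bars. For Plvap, Stab1 and Pi16 the controls come down to the irradiated level by day 15, while for Trbc2, H2-Aa and Rgs5 most irradiated tumors lie below the controls on day 23.

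Beyond the vessels, this held for genes lower early, while for genes higher early both levels moved. A gene called early, not called late and with a called late-minus-early difference toward 0 is termed faded here. There were 1054 faded genes among the 3686 early-lower genes tested late, and 807 among the 3516 early-higher ones. Of the 1054, 832 fell with time in controls (78.9%) and 302 rose in irradiated tumors (28.7%), with medians of −0.78 and 0.11. Of the 807, 438 rose in controls (54.3%) and 357 fell in irradiated tumors (44.2%), with medians of 0.34 and −0.21. These genes were chosen from the same tumors, so the shares describe how the difference closed and are no test of it.

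The 5 faded early-lower genes with the smallest p for the difference were Pi16, Stab1, Heg1, Ggt5 and Glul. Pi16, a marker of adventitial fibroblasts (chr17:29317680-29330593, plus strand), had a median of 34.6 CPM in early controls and 4.56 CPM in early irradiated tumors. In late tumors it lay at 4.64, 8.10 and 9.97 CPM (lowest, median, highest) in controls and 3.50, 6.02 and 13.4 CPM after 6 Gy. Its fold change went from −2.92 ± 0.21 to −0.07 ± 0.24, a difference of 2.85 ± 0.36 (adjusted p = 1.15e-05). Stab1, a scavenger receptor of tissue macrophages and sinusoidal endothelium, was at 113 to 403 CPM in early controls and at 69.2 to 98.9 CPM in late ones, with irradiated tumors at 89.7 to 156 CPM early and 73.8 to 154 CPM late. Its difference was 1.53 ± 0.21 (adjusted p = 2.12e-05). Heg1, a receptor of vessel junctions, Ggt5, a gamma-glutamyltransferase of leukotriene metabolism, and Glul, glutamine synthetase, had differences of 1.54 ± 0.19, 1.78 ± 0.23 and 1.19 ± 0.16. Their late values were 0.20 ± 0.20, −0.44 ± 0.16 and −0.15 ± 0.09, and for Ggt5 every irradiated tumor of day 23 still lay below the controls of that day.

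In the macrophage and monocyte list 17 of 24 members were lower early (17.4% of all genes). For 7 members the late-minus-early difference was called, all positive (5.52% of all genes). The late median was −0.25 (−0.16 without the 6 muscle-rich and skin-rich tumors), with 0.05 on day 15 and −0.43 on day 23. On day 23 every irradiated tumor lay below every control for 9 of the 24 genes (6.89% of all genes). Lyve1 went from −1.99 ± 0.22 to 0.29 ± 0.25 (difference 2.28 ± 0.38, adjusted p = 0.000348) and Folr2 from −1.45 ± 0.20 to 0.37 ± 0.29 (difference 1.81 ± 0.36, adjusted p = 0.00179). Cd163, a haemoglobin scavenger receptor, had a median of 552 CPM in early controls, 35.1 CPM in early irradiated tumors, and 10.8 and 5.45 CPM in late controls and late irradiated tumors. In it both groups fell with time, by 5.69 in controls and by 3.17 in irradiated tumors on the log2 scale (adjusted p = 1.27e-07 and 4.34e-06). Adgre1, which encodes the macrophage surface protein F4/80, was at −0.59 ± 0.12 early and −0.59 ± 0.21 late (difference 0.02 ± 0.20, adjusted p = 0.971), though its late value was not called.

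Fibroblast, collagen and complement genes were lower early in 14 of 22, 14 of 18 and 17 of 18 members (17.4% of all genes). Late, their medians were −0.39, −0.28 and −0.37, and positive differences were called for 6, 4 and 8 members (5.52% of all genes). The complement median was −0.10 without the 6 muscle-rich and skin-rich tumors. On day 23 every irradiated tumor lay below every control for 1 of 22, 0 of 18 and 6 of 18 genes, the 6 being complement genes. Over all genes that share was 6.89%. Dpt and Dcn, matrix proteins of fibroblasts, had late values of −0.92 ± 0.35 and −0.65 ± 0.30, and differences of 2.08 ± 0.51 and 1.25 ± 0.39 (adjusted p = 0.00865 and 0.0348). C4b, a component of the classical complement cascade, is a case in which the irradiated level moved. It rose with time in irradiated tumors by 1.81 (adjusted p = 7.86e-07), from a median of 16.2 to 51.2 CPM, while in controls it went from 80.8 to 53.1 CPM (−0.58, adjusted p = 0.161). Cxcl12, a chemokine of stromal cells that attracts CXCR4-bearing cells, had a difference of 2.14 ± 0.42 (adjusted p = 0.00155) and a late value of −1.29 ± 0.37. It lay at 2.21, 7.64 and 11.9 CPM in late controls and 1.79, 2.35 and 7.62 CPM in late irradiated tumors.

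**Figure D3:**
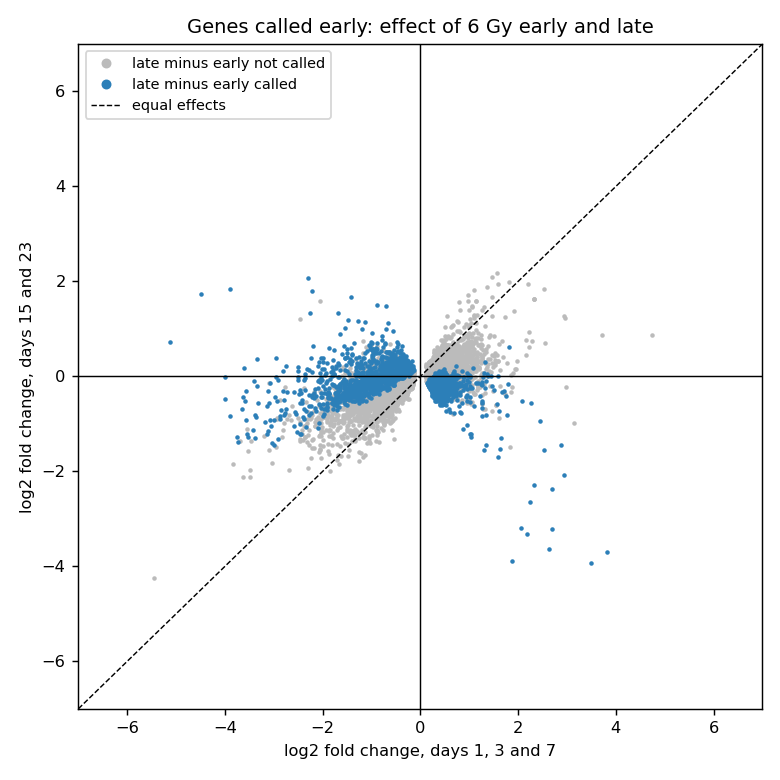
Log2 fold change of 6 Gy against control on days 1, 3 and 7 (x) and on days 15 and 23 (y) for the 7202 genes called early and tested late; blue points had a called late-minus-early difference and the dashed line marks equal effects. Most points lie nearer to 0 on the y axis than on the x axis.

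How far the direction of the early effects was still visible late is given by signs. Of the 3686 early-lower genes, 69.8% were negative late, where 48.4% of all genes tested in both were negative, and 548 of them (14.9%) had a negative late value at an unadjusted p under 0.05. Of the 3516 early-higher genes, 50.7% were positive late, where 51.6% of all genes were, and 192 (5.46%) passed the unadjusted threshold. Their median went from 0.40 early to 0.003 late, and that of the early-lower genes from −0.76 to −0.16. No test was made of these shares, since genes are not independent replicates.

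Lymphocyte genes had negative late values that did not pass the test. In the T cell list, which holds the T cell receptor, CD3 chains and signaling genes, 24 of 25 members were lower early (17.4% of all genes). Late, 23 of 25 had a negative value with a median of −0.74 (−0.32 without the 6 muscle-rich and skin-rich tumors). At an unadjusted p under 0.05, 16 were lower (7.19% of all genes were lower at that threshold), and 0 were called. On day 23 every irradiated tumor lay below every control for 12 of the 25 genes (6.89% of all genes), and on day 15 for 1 of the 25 (1.62%). The late-minus-early difference was called for 3 members, all positive (5.52% of all genes): Cd4, Cd27 and Foxp3.

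Trbc2 encodes a constant region of the T cell receptor beta chain (chr6:41546730-41548352, plus strand). On day 15 it was at 3.35, 2.15 and 2.31 CPM in controls and at 2.26, 1.61, 1.24, 1.24 and 1.82 CPM after 6 Gy. On day 23 it was at 3.77, 2.13 and 4.49 CPM in controls and at 1.49, 0.596, 1.17, 0.944 and 1.14 CPM after 6 Gy. The groups touched on day 15 through 1 irradiated tumor and did not overlap on day 23. Its late log2 fold change was −1.20 ± 0.25 (adjusted p = 0.359), beside −1.26 ± 0.22 early (adjusted p = 1.84e-05), a difference of 0.08 ± 0.37.

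Cd8a, the CD8 chain of cytotoxic T cells (chr6:71373427-71379173, plus strand), was higher late than early in both groups. Controls of day 15 were at 4.78, 6.14 and 3.89 CPM and those of day 23 at 9.17, 8.48 and 8.73 CPM. Irradiated tumors were at 6.31, 4.31, 2.00, 2.79 and 2.34 CPM on day 15 and at 3.11, 0.755, 4.34, 2.33 and 2.72 CPM on day 23. All irradiated tumors of day 23 thus lay below all controls of that day, while those of day 15 overlapped. The fold change was −1.13 ± 0.32 late (adjusted p = 0.359) and −1.70 ± 0.39 early, and with time the gene rose by 2.22 in controls and 2.83 in irradiated tumors (adjusted p = 0.000265 and 2.61e-06).

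Among other T cell genes, Cd4 had an early value of −2.46 ± 0.33 and a late one of −0.55 ± 0.32, a called difference of 1.91 ± 0.57 (adjusted p = 0.0272). Foxp3, the factor of regulatory T cells, was at −1.24 ± 0.22 early and −0.11 ± 0.21 late (difference 1.13 ± 0.38, adjusted p = 0.0499). Cd2, an adhesion receptor of T and NK cells, was at 0.838, 1.48 and 1.04 CPM in controls and 0.847, 0.607, 0.554, 0.408 and 0.448 CPM in irradiated tumors of day 15. On day 23 it was at 1.31, 0.952 and 1.37 CPM against 0.422, 0.238, 0.745, 0.348 and 0.633 CPM. Only on day 15 did 1 irradiated tumor reach the lowest control, and its late fold change was −1.14 ± 0.24.

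Genes of NK and cytotoxic lymphocytes had a late median of −0.86 (−0.49 without the 6 muscle-rich and skin-rich tumors). At an unadjusted p under 0.05, 10 of 19 were lower late (7.19% of all genes), and 0 were called. Early, 13 were lower and 2 higher, beside 17.4% and 15.9% of all genes. Nkg7, a cytotoxic granule protein, and Klrd1, the CD94 receptor chain, had late values of −1.33 ± 0.36 and −1.29 ± 0.34, with early ones of −2.41 ± 0.35 and −1.60 ± 0.31. Of the granzyme genes, Gzma was at −1.0 ± 0.28 and Gzmd at 0.37 ± 0.43 late. Of the checkpoint receptors of exhausted lymphocytes, Pdcd1, which encodes PD-1, was at −1.27 ± 0.32 and Lag3 at −0.99 ± 0.22, with differences from early of −0.09 ± 0.43 and 0.10 ± 0.30, while the ligand gene Cd274 was at −0.04 ± 0.21.

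Antigen presentation genes of MHC class II had nearly the same median early and late. Its 12 genes encode the class II chains, the peptide-loading factors, the invariant chain, the transactivator Ciita and the protease Ctss. Early, 9 of 12 were lower (17.4% of all genes) and the median was −0.75. Late, 12 of 12 were negative with a median of −0.67 (−0.30 without the 6 muscle-rich and skin-rich tumors). At an unadjusted p under 0.05, 10 were lower (7.19% of all genes), and 0 were called. No late-minus-early difference was called in either direction.

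H2-Aa, the alpha chain of the I-A molecule (chr17:34282744-34287823, minus strand), was at 286, 425 and 347 CPM in controls of day 15 and 461, 307 and 416 CPM in those of day 23. After 6 Gy it was at 306, 284, 113, 167 and 172 CPM on day 15 and 213, 71.7, 326, 176 and 292 CPM on day 23. On each day 1 irradiated tumor lay above the lowest control and the other irradiated tumors below it. The fold change was −0.82 ± 0.25 late (adjusted p = 0.377) and −0.95 ± 0.23 early (adjusted p = 0.0015). Both groups rose with time, by 1.18 in controls and 1.31 in irradiated tumors (edgeR adjusted p = 0.00197 and 9.76e-05). The late distance between them was not called, and the groups overlapped on both late days.

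The class II genes are known to share a promoter module whose Y box is an inverted CCAAT element bound by NF-Y. The RefSeq promoters of GRCm38.p6, 300 bases from 250 before to 50 after each start, were searched on both strands for the letters TGATTGG. The search found them in 6 of the 8 list genes that matched an entry, H2-Aa, H2-Eb1, H2-DMb1, H2-DMb2, H2-Oa and H2-Ob, and in 7.82% of all 32851 promoters. H2-DMa and Ctss did not hold these letters in the window. The 150 bases before the start, 5′ to 3′ on the strand of the gene with the match in capitals, are shown for those of the 6 that encode chains of the I-A, I-E and DM molecules, namely H2-Aa (chr17:34287824-34287973, minus strand), H2-Eb1 (chr17:34305717-34305866, plus strand), H2-DMb1 (chr17:34153041-34153190, plus strand) and H2-DMb2 (chr17:34145099-34145248, plus strand).
H2-Aa: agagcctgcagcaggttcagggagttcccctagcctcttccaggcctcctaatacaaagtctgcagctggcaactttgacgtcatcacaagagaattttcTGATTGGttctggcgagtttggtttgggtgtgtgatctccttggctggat
H2-Eb1: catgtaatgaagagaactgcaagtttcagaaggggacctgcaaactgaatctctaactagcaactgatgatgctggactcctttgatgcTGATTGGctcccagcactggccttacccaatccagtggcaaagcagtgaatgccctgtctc
H2-DMb1: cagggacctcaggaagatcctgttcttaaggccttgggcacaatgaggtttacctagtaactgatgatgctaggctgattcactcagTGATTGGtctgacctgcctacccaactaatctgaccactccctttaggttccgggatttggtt
H2-DMb2: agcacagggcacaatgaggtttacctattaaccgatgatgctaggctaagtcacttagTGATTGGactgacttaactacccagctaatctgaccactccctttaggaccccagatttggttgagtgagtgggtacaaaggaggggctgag

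The match began 50, 61, 63 and 92 bases before the start in H2-Aa, H2-Eb1, H2-DMb1 and H2-DMb2. Late fold changes of these genes were −0.82 ± 0.25, −0.84 ± 0.26, −0.70 ± 0.26 and −0.49 ± 0.21. H2-Oa and H2-Ob, which also held the letters, were at −0.19 ± 0.27 and −0.70 ± 0.42, and H2-DMa, which did not, at −0.62 ± 0.20. No relation of the match to the fold change was tested.

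Summed over the list, class II levels were 1985 to 3376 CPM in late controls and 632 to 2469 CPM in late irradiated tumors, and summed T cell levels 84.3 to 122 and 31.2 to 105 CPM. The lowest irradiated tumor in both sums was 6 Gy replicate 2 of day 23, the one with the most muscle and mitochondrial RNA. Among day 15 tumors the lowest was 6 Gy replicate 3, the one with skin RNA. Without the 3 muscle-rich tumors the late medians were −0.62 for T cells, −0.62 for NK cells and −0.46 for class II, and without the 3 skin-rich tumors −0.62, −0.99 and −0.63. Without all 6 they were −0.32, −0.49 and −0.30, with only control replicate 2 left on day 23. The part of these 6 tumors in the result was not tested further.

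**Figure D4:**
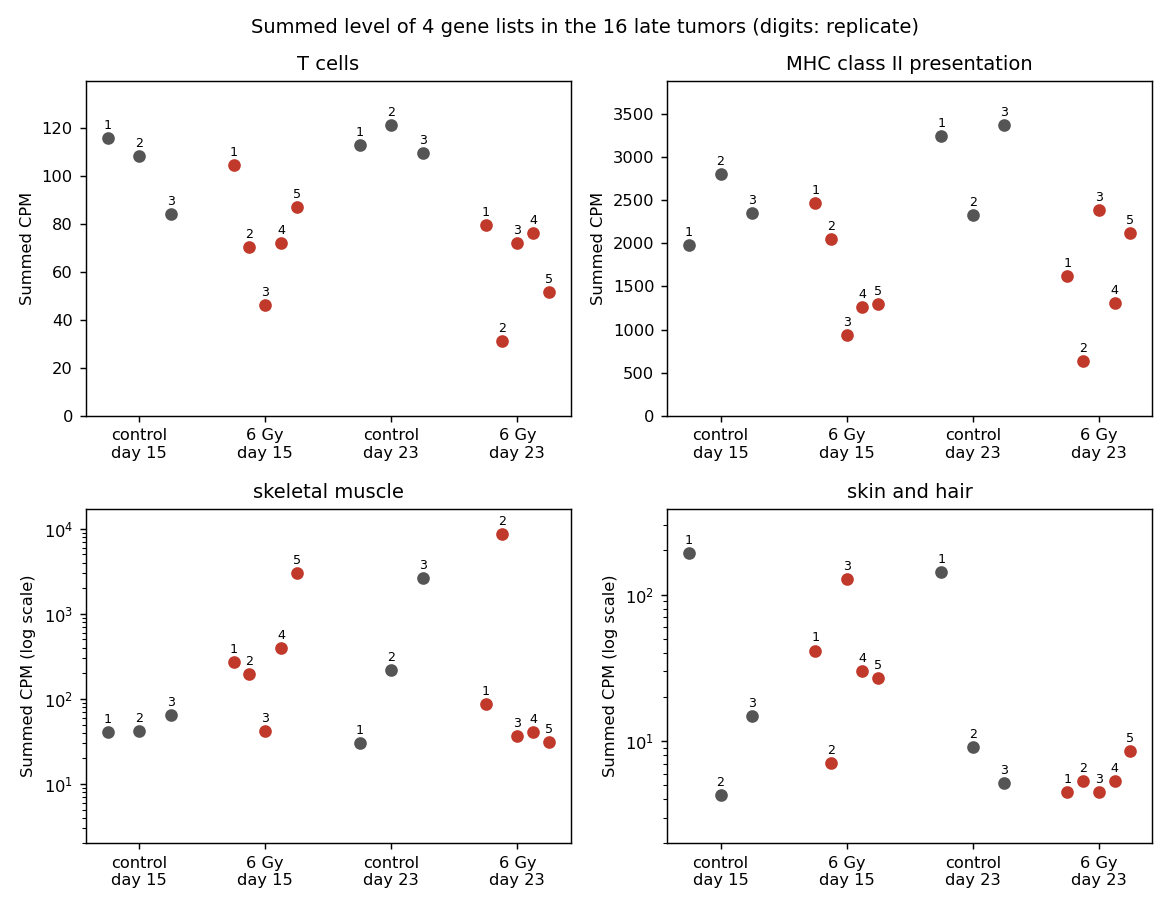
Summed CPM of the T cell, MHC class II, skeletal muscle and skin and hair lists in each of the 16 late tumors, control in grey and 6 Gy in red, with the replicate number above each point and a log scale for the tissue lists. All irradiated tumors of day 23 lie below the controls in the T cell sum (31.2 to 79.7 against 110 to 122 CPM), and 6 Gy replicate 2 of that day is lowest in the T cell and class II sums and highest in skeletal muscle.

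Genes of cross-presenting dendritic cells were among the lower values of the dendritic cell list. Xcr1, the chemokine receptor of these cells, was at 0.410, 0.933 and 1.70 CPM in late controls and at 0.0397, 0.313 and 0.602 CPM in late irradiated tumors (lowest, median, highest). Its fold change was −1.55 ± 0.38 late and −1.45 ± 0.25 early (difference −0.07 ± 0.43). Clec9a, their receptor for dead cells, was at −1.02 ± 0.28 late and −1.78 ± 0.17 early. In the list as a whole, 16 of 20 were lower early (17.4% of all genes). The late median was −0.47 (−0.30 without the 6 muscle-rich and skin-rich tumors), while Ccl22, a chemokine of mature dendritic cells, faded (difference 1.11 ± 0.28, adjusted p = 0.0115).

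Rgs5, a regulator of G protein signaling in pericytes (chr1:169655501-169695813, plus strand), had the lowest late value of the pericyte and smooth muscle list. Controls were at 33.9, 20.6 and 31.7 CPM on day 15 and 85.3, 67.4 and 44.1 CPM on day 23. Irradiated tumors were at 28.6, 9.5, 7.20, 19.0 and 30.4 CPM and at 18.3, 4.93, 14, 18.8 and 15.8 CPM. The groups overlapped on day 15 and were apart on day 23. The fold change was −2.06 ± 0.20 early and −1.45 ± 0.37 late (difference 0.66 ± 0.33, adjusted p = 0.181). Over its list, 10 of 13 genes were lower early (17.4% of all genes) and the late median was −0.45. Differences were called for Notch3 and Myh11, both positive (5.52% of all genes).

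Genes of the direct radiation response were near 0 late. Of 24 p53 and radiation response genes, 9 were higher and 2 lower early, beside 15.9% and 17.4% of all genes. The late median was 0.03 (−0.08 without the 6 muscle-rich and skin-rich tumors). For 5 genes the late-minus-early difference was called, all negative (5.15% of all genes). Cdkn1a, the cell cycle inhibitor p21, lay at 16, 24.4 and 40.3 CPM in late controls and 20.5, 27.2 and 45.7 CPM in late irradiated tumors (0.20 ± 0.19). Mdm2, the p53 ligase and target, was at 0.21 ± 0.07 early (adjusted p = 0.0126) and 0.10 ± 0.12 late, with a difference of −0.12 ± 0.11 that was not called. DNA repair and replication stress genes were higher early in 12 of 31 (15.9% of all genes). Their late median was −0.02 (−0.05 without those 6 tumors).

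Mitotic genes were higher early in 13 of 23 and lower in 0, beside 15.9% and 17.4% of all genes. Their late median was −0.04 (−0.14 without the 6 muscle-rich and skin-rich tumors), and 3 negative differences were called (5.15% of all genes). Ccnb1, cyclin B1, went from 0.59 ± 0.13 to −0.14 ± 0.20 (difference −0.73 ± 0.23, adjusted p = 0.0338), and Cdk1, its kinase, from 0.41 ± 0.12 to −0.19 ± 0.17 (−0.60 ± 0.20, adjusted p = 0.0442). Here the irradiated level moved as well: 23 of 23 fell with time in irradiated tumors and 13 of 23 in controls. Beside these, 19.2% and 15.3% of all genes fell. The 5 faded early-higher genes with the smallest p for the difference were Nipal2, a magnesium transporter-like gene, Hace1, a ubiquitin ligase, Mybl1, a MYB-family factor, Rbm41 and Glrp1. Nipal2 was at 11.1 to 17.2 CPM in early controls and 19.1 to 25.4 CPM in early irradiated tumors, and at 16.9 to 21.5 CPM and 11.1 to 18.9 CPM late. It went from 0.56 ± 0.07 to −0.32 ± 0.12, with a difference of −0.88 ± 0.12 (adjusted p = 1.53e-05). Its level rose in controls by 0.38 and fell by 0.50 in irradiated tumors (adjusted p = 0.00109 and 4.01e-06).

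The cGAS to interferon axis showed no late effect that passed the test. Cgas was at −0.17 ± 0.19 late and −0.09 ± 0.11 early. Sting1, the adaptor that cGAS activates, was at 37.5 to 56.4 CPM in early controls and 21.8 to 32.7 CPM in early irradiated tumors, with no overlap, and at 28.8 to 46.9 and 25 to 40.0 CPM late. Its fold change went from −0.74 ± 0.07 to −0.04 ± 0.11 (difference 0.69 ± 0.12, adjusted p = 0.00039), and in this gene both levels moved, by −0.39 in controls and 0.30 in irradiated tumors (adjusted p = 0.00108 and 0.00156). Ifnb1, interferon beta, was too low to be tested, at 0.0515 ± 0.0315 CPM in 6 late controls and 0.0775 ± 0.0677 CPM in 10 late irradiated tumors (mean ± SD).

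Of 30 interferon-stimulated genes, 8 were higher and 2 lower early, beside 15.9% and 17.4% of all genes. Their medians by day were −0.33, 1.10 and −0.34 on days 1, 3 and 7. Late, the median was −0.22, but 0.05 without the 3 muscle-rich tumors and 0.11 without the 6 muscle-rich and skin-rich ones. With all tumors 23 of 30 were negative and 2 were lower at an unadjusted p under 0.05 (7.19% of all genes). No late-minus-early difference was called. Siglec1, which encodes CD169, a macrophage receptor, was at 27.6 to 124 CPM in early controls and 8.44 to 28.5 CPM in late controls, with irradiated tumors at 9.87 to 59.7 and 9.67 to 26.3 CPM. Its effect faded from −1.38 ± 0.20 to −0.09 ± 0.27 (difference 1.31 ± 0.34, adjusted p = 0.0129).

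Ptgs2, Il10 and Nos2 varied widely between tumors of the same group, while the prostaglandin pathway list summed to 826 to 1195 CPM in late controls and 826 to 1552 CPM in late irradiated tumors. Ptgs2, which encodes COX2, was at 38.3, 144 and 337 CPM in late controls and 74.2, 152 and 649 CPM in late irradiated tumors (0.60 ± 0.45). Il10 was at 1.56, 2.90 and 6.12 CPM and at 0.596, 2.96 and 8.69 CPM (0.12 ± 0.44). Nos2, inducible nitric oxide synthase, was at 29.6 to 119 CPM in controls and 48.5 to 262 CPM after 6 Gy (0.77 ± 0.34, not called). Ptger4, the EP4 receptor of prostaglandin E2, went from −1.11 ± 0.12 to −0.09 ± 0.14 (difference 1.02 ± 0.21, adjusted p = 0.00281), and Tgfb1, the ligand TGF-beta 1, from −0.66 ± 0.11 to 0.25 ± 0.18 (difference 0.90 ± 0.19, adjusted p = 0.00332).

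Hypoxia and glycolysis genes had mostly positive late values that did not pass the test. Of 22, 19 were positive with a median of 0.11 (−0.02 without the 6 muscle-rich and skin-rich tumors). At an unadjusted p under 0.05, 3 were higher (4.7% of all genes), beside 8 called higher early (15.9% of all genes). Vegfa, the vascular growth factor (chr17:46016993-46032369, minus strand), was at 59.7, 81.3 and 76.6 CPM in controls and 87.8, 88.5, 162, 116 and 96.7 CPM in irradiated tumors of day 15, with no overlap. On day 23 it was at 75.3, 78.2 and 41.8 CPM against 91.8, 167, 73.7, 121 and 88.4 CPM, where 1 irradiated tumor lay within the controls. The late value of 0.68 ± 0.20 was not called (adjusted p = 0.359), but it differed from the early value of −0.12 ± 0.12 by 0.79 ± 0.21 (adjusted p = 0.0167). Nuclear-encoded respiratory chain genes were negative late in 21 of 22, with a median of −0.19. At an unadjusted p under 0.05, 8 were lower (7.19% of all genes). With time, 17 of 22 fell in irradiated tumors and 2 in controls, beside 19.2% and 15.3% of all genes. The difference of effects was called for 2, both negative (5.15% of all genes).

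The 10 genes with the smallest late p, none of them called, were Tmem132c, Reg3g, Clec4a3, Cyp4b1, Trbc2, Hmgb3, Lingo3, Sorbs2, Cd2 and Pla2g7. Tmem132c, a transmembrane gene (chr5:127241808-127565793, plus strand), was at 1.92, 0.937 and 1.10 CPM in controls of day 15 and 0.419, 0.789 and 0.873 CPM in those of day 23. After 6 Gy it was at 0.295, 0.335, 0.234, 0.15 and 0.377 CPM and at 0.332, 0.238, 0.316, 0.149 and 0.174 CPM, below every control of the same day. Its late fold change was −1.89 ± 0.28 (adjusted p = 0.0937), against −0.08 ± 0.24 early, and the difference of −1.79 ± 0.41 was called (adjusted p = 0.00586). Without control replicate 1 of day 23 the late value was called as well (adjusted p = 0.0336).

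Lingo3, a leucine-rich repeat membrane gene (chr10:80832801-80844039, minus strand), was the counterpart. It was at 0.745, 1.08 and 1.12 CPM in controls and 1.74, 1.65, 2.05, 2.25 and 2.24 CPM in irradiated tumors of day 15, and at 0.140, 0.15 and 0.444 CPM against 0.965, 2.30, 0.903, 0.894 and 1.28 CPM on day 23. Every irradiated tumor lay above every control of its day, as for 2.67% of all genes on day 15 and 3.39% on day 23. The late value was 1.63 ± 0.34 and the difference from early 1.52 ± 0.25 (adjusted p = 0.000389), and the gene fell with time by 2.32 in controls and by 0.80 in irradiated tumors (adjusted p = 4.6e-10 and 0.00019). Over all genes, 21 lay below the controls on both days (0.0987%) and 22 above (0.103%), and among the 10 named genes Tmem132c, Clec4a3, Cyp4b1 and Pla2g7 were below and Lingo3 above.

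Of the others, Clec4a3, a lectin of myeloid cells, Cyp4b1, a cytochrome P450, and Reg3g, an antibacterial lectin of epithelia, were also lower early. Clec4a3 lay at 2.83, 3.50 and 5.00 CPM in late controls and 0.894, 1.76 and 2.82 CPM after 6 Gy (−1.09 ± 0.21 late, −1.68 ± 0.22 early). Reg3g was at 0.0140 to 1.77 CPM in late controls and 0 to 0.0452 CPM in late irradiated tumors, too low for its size to be read from the fit. Hmgb3, a chromatin protein, was at 43.2 to 63.6 CPM in controls and 28.8 to 44.8 CPM after 6 Gy (−0.50 ± 0.11 late, 0.11 ± 0.10 early, difference −0.62 ± 0.18, adjusted p = 0.0212). Sorbs2, an adaptor of actin structures that is also abundant in muscle, was at 5.91 to 15.3 CPM and 6.84 to 28.2 CPM (1.05 ± 0.22). Pla2g7, the platelet-activating factor hydrolase of macrophages, was at 127 to 175 CPM and 70.9 to 126 CPM (−0.48 ± 0.10), with no overlap on either day.

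**Figure D5:**
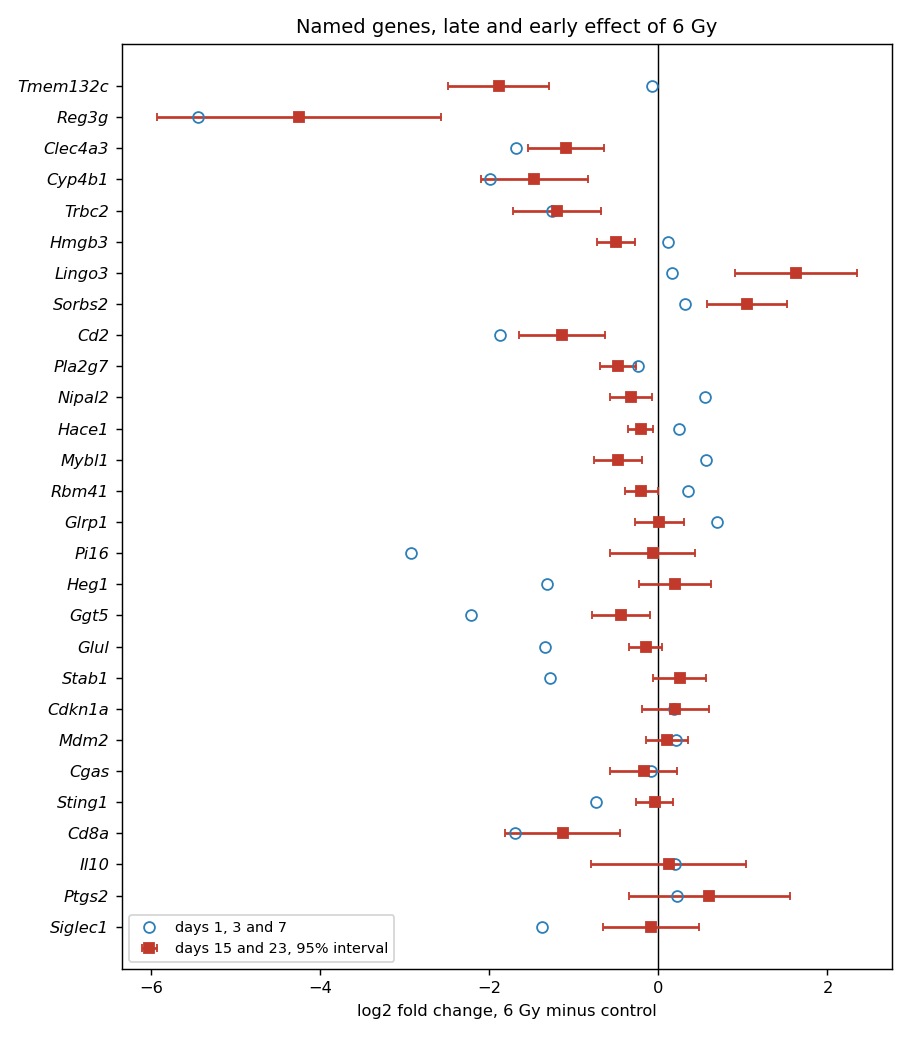
Log2 fold change of 6 Gy against control for the named genes, with the late value and its 95% interval (red squares) and the early value (open circles). No late value was called, and the intervals of Pi16, Heg1, Glul, Stab1, Sting1 and Siglec1 include 0 while their early values lie between −2.92 and −0.74.

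Whether any effect lasted depended on the model. With the test used here, 0 genes were called both early and late in the same direction. The larger fit of 45 tumors, which takes the spread from early and late tumors together, called 38 genes late, 23 higher (0.0954%) and 15 lower (0.0622%). Of these, 14 were called early with the same sign. Fam169a, Rgs11, Espnl and Trpm6 were higher. Rgs5, Gucy1a1, Sfrp2, Olfr558, Reg3g, Lipo3, Neto2, Gja5, Clec9a and Xcr1 were lower. Of all genes tested, 15.9% were called higher early and 17.4% lower, so some overlap arises from these shares alone. DESeq2 on the 16 late tumors called 92, of which 44 were called early in the same direction. They comprised 37 of its 62 lower genes (17.4% of all genes) and 7 of its 30 higher ones (15.9% of all genes). Of these 44 and the 14 above, 8 genes were in both sets. These were Fam169a, Rgs11 and Trpm6, higher, and Gucy1a1, Reg3g, Rgs5, Sfrp2 and Xcr1, lower. Gucy1a1, a subunit of the nitric oxide receptor guanylate cyclase, was at −2.06 ± 0.22 early and −1.53 late, and Sfrp2, a secreted WNT modulator of fibroblasts, at −3.64 ± 0.33 early and −2.12 late. Both were low, with late medians of 0.563 and 0.946 CPM in irradiated tumors and 1.80 and 6.09 CPM in controls.

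DESeq2 called 0.148% of the 20237 genes with an adjusted p higher and 0.306% lower. In the lists it called lower 4 of 25 T cell genes (Trbc2, Cd2, Cd3d and Cd3g), 2 of 19 NK genes (Nkg7 and Klrd1), 1 of 19 dendritic cell genes (Xcr1), 1 of 13 pericyte genes (Rgs5) and 2 of 30 immunosuppressive genes (the checkpoint genes Lag3 and Pdcd1), and 0 endothelial, macrophage, class II, p53 or interferon-stimulated genes. It also called Krt5, Krt6a, Krt6b, Dsc1 and Dsc3 lower, which encode keratins and desmosome proteins of skin. Leaving tumors out also left fewer to test: 13 without the 3 muscle-rich, 13 without the 3 skin-rich and 10 without all 6. Without the 3 muscle-rich tumors DESeq2 called 23 higher and 32 lower, with Trbc2 and Rgs5 called among these 10 list genes. Without the 3 skin-rich tumors it called 1 higher, Mkx, and 4 lower, Clec4a3, Lyn, Reg3g and Tmem132c, and 0 of the 10. Without all 6 it called 2 and 2, namely Cntnap1 and Tlcd4 higher and Pla2g7 and Tmem132c lower, and edgeR called 0 in each of these sets.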

How the data were processed

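Whole 4T1 tumors were sequenced from stranded total RNA libraries. Per the labels the reads were trimmed with cutadapt and aligned to mm10 with STAR in Partek Flow (11.0.24.0328). The deposited table holds expected counts of 49080 genes in 94 tumors, which the authors estimated per gene. The counting tool and gene annotation are not given in the sources used here. Its values have 1 decimal and were rounded to whole counts. They do not contradict unnormalized counts, and their totals differ between tumors.

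Groups were taken from sample titles. Genes passing filterByExpr were scaled by TMM and tested with edgeR 4.0.16 (limma 3.58.1, R 4.3.3) by the quasi-likelihood F test, with Benjamini-Hochberg adjustment over all genes tested and a threshold of 0.05. The late fit used 16 tumors with day as a factor. A fit of 45 tumors with a mean per group and day gave the early effect, the late-minus-early difference and the change with time within each treatment. That change with time was added after seeing the data. CPM values use the TMM scale of those 45 tumors. DESeq2 1.42.0, other scalings, filters and sets of tumors were alternatives. The edgeR tests of the late effect, the early effect and the late-minus-early difference were run on simulated counts first. The change with time within each treatment, DESeq2 and the other alternatives were not. Named genes were the 10 with the smallest late p (since none was called), the 5 faded genes in each direction with the smallest p for the difference above a floor of 1 in average log2 CPM, and Cdkn1a, Mdm2, Cgas, Sting1, Ifnb1, Cd8a, Il10, Ptgs2 and Siglec1. Other list members given as examples were picked after their values were seen. The members and lists were chosen with earlier results of these data known. Nothing in the labels says that replicates are separate animals, so p-values measure only the spread between these tumors. No pair among 26 replicate pairs was as close as sampling noise (smallest mean chi-square per gene 27.8, where noise gives 1). Gene coordinates are those of GENCODE M21 on GRCm38, the assembly of mm10.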

Additional observations from a re-analysis of the deposited data

Results flagged for a closer look

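Among 70 sets of 5 values from the irradiated tumors of 1 late day, examined for a tumor far from the rest (Dixon's test at the 95% limit), 10 held one, where chance gives about 1 in 20, or 3.5. Of these, 4 were 6 Gy replicate 3 of day 15, with 45.7 CPM of Cdkn1a, 107.8 CPM of Mdm2, 648.6 CPM of Ptgs2 and 128.4 CPM summed over the skin and hair list. Another 3 were 6 Gy replicate 2 of day 23, with 2.30 CPM of Lingo3, 8621 CPM summed over the skeletal muscle list and 14.6% mitochondrial counts. The remaining 3 were 12.5 CPM of Mybl1 in 6 Gy replicate 1 of day 15, 3039 CPM of the skeletal muscle list in 6 Gy replicate 5 of day 15, and 8.51 CPM of the skin and hair list in 6 Gy replicate 5 of day 23.

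The effect of 6 Gy differed between late and early tumors for 16 named genes (edgeR, adjusted p under 0.05 over all genes). The late effect was lower on the log2 scale by the following differences, late minus early: Tmem132c −1.79, Mybl1 −1.04, Nipal2 −0.88, Glrp1 −0.68, Hmgb3 −0.62, Rbm41 −0.55 and Hace1 −0.45. It was higher for Pi16 (2.85), Ggt5 (1.78), Heg1 (1.54), Stab1 (1.53), Lingo3 (1.52), Siglec1 (1.31), Glul (1.19), Sorbs2 (0.73) and Sting1 (0.69). Tmem132c, Hmgb3, Lingo3 and Sorbs2 were not called early, and the other 12 were.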

How the results depend on the processing

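Late calls of edgeR stayed at 0 higher and 0 lower with RLE size factors, housekeeping scaling, no filter on low counts and each late day alone. Leaving out each tumor in turn gave 0 higher and 0 to 1 lower, the 1 being Tmem132c without control replicate 1 of day 23, and 0 to 1 genes for day 23 minus day 15, the 1 without 6 Gy replicate 2 of day 23. Late calls became 30 higher and 62 lower with DESeq2, 23 and 15 with the 45 control and 6 Gy tumors in 1 fit, 62 and 16 with all 94 tumors in 1 fit, and 174 and 311 at the limits of the study's methods, an unadjusted p under 0.05 and a 2-fold change. After seeing the data, DESeq2 was repeated without the 3 tumors rich in skeletal muscle RNA (23 and 32), without the 3 rich in skin RNA (1 and 4) and without all 6 (2 and 2). These 3 sets held 13, 13 and 10 tumors, the last with only control replicate 2 left on day 23. The cause of these changes was not tested.

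Early calls were 1324 higher and 2282 lower from day 7 only, and 3398 to 4655 higher and 3731 to 4349 lower with 1 tumor left out. Late-minus-early calls numbered 1520 with no filter, 822 against day 7 only, and 1109 to 3625 with 1 tumor left out, the lowest without control replicate 3 of day 15. Same-numbered tumors deviated together in no steady way (r of −0.13 to 0.32 in 6 late pairs, 2 of them over 0.1). Over all 20 pairs r ran from −0.51 to 0.51. These values were set against no reference, so they cannot decide whether the numbers pair tumors. With the replicate number as a block, the counts were 0 late, 2916 higher and 3728 lower early, and 776 for late minus early. Genes called both early and late in the same direction numbered 0 with RLE, housekeeping scaling, no filter, the block and each of the 16 late tumors left out, but 14 in the 45-tumor fit, 21 in the 94-tumor fit and 44 with DESeq2, which were added for this count after seeing the data. Beside these counts, 15.9% of all genes were called higher early and 17.4% lower. Housekeeping scaling moved the late median of all genes from 0.01 to 0.12, with 1423 genes higher and 692 lower at an unadjusted p under 0.05. Over the 28 alternatives for list values, the late median stayed negative for T cells (−1.04 to −0.32), NK cells (−1.0 to −0.41) and MHC class II (−0.79 to −0.30), and spanned 0 for endothelium (−0.53 to 0.22). Depth limits Ifnb1, Reg3g, Xcr1, Tmem132c, Cyp4b1, Cd2 and Lingo3, which lay near or under 1 CPM in at least 1 late group. It also limits Gucy1a1, Sfrp2, Olfr558, Espnl, Neto2, Gja5 and Clec9a, called early and late in the 45-tumor fit. Their late irradiated medians lay between 0.0360 CPM (Olfr558) and 0.946 CPM (Sfrp2).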
